A study of Macaca fascicularis with 23 samples.

Results

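The Nodal coreceptor gene CRIPTO and 5 genes that respond to Nodal signals, LEFTY1, LEFTY2, SKIL, EOMES and MIXL1, were followed in 21 libraries of cynomolgus monkey (Cm) pluripotent stem cells (PSCs). These 6 genes, of 8415 genes analysed, were chosen by their place in the Nodal pathway and with earlier results of these data known, among them their levels in the 3 media. Their differences between media are therefore given as a description and carry no test. CRIPTO (gene ID 102143209) was listed under a provisional name and was identified by its gene ID. LEFTY1 (102143175), LEFTY2 (102144954), SKIL (102122724), EOMES (102144498) and MIXL1 (102147071) were listed by name.

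Nodal is a secreted ligand of the TGF-β family. It binds activin receptors together with CRIPTO, a coreceptor anchored to the cell surface, and the receptors then phosphorylate SMAD2 and SMAD3, which enter the nucleus with SMAD4. LEFTY1 and LEFTY2 are secreted antagonists of Nodal that Nodal itself induces, SKIL is a nuclear inhibitor of SMAD complexes and also a target of the pathway, and EOMES and MIXL1 are transcription factors of the primitive streak and mesendoderm. Activin and Nodal signals are known to maintain primed pluripotency in human ESCs, and CRIPTO is widely used as a marker of undifferentiated human PSCs.

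Each of 7 lines was measured once in each of 3 media. CMK6 (male), TRSK (male) and CMK9 (female), as the paper gives their sex, were derived from embryos (ESC lines). L3 and L6 came from liver and S6 and S12 from stomach (iPSC lines), all from cultured cells of 1 female foetus reprogrammed with episomal vectors that carried OCT3/4 with an shRNA against p53, SOX2 with KLF4, and L-MYC with LIN28, so that cell class and donor cannot be told apart. Sex goes in part with cell class as well. Primed cells grew in a medium with bFGF and KSR, a serum replacement. Naïve-like cells grew in K5cLD, with the chemicals Gö6983, forskolin, kenpaullone, CHIR99021 and SB590885, human LIF, and doxycycline (Dox), which induced PiggyBac transgenes for human KLF2 and NANOG. Differentiated cells came from the same medium after removal of LIF and Dox (K5c), and therefore carried the same transgenes without the inducer. The authors kept the lines on laminin-511 without feeder cells before RNA was taken, and in some iPSC lines they found that the reprogramming vector persisted. The 2 further libraries were cultured somatic cells labelled liver and stomach, 1 of each. With 1 library per line and medium, the lines are the replicates, and the order in which libraries were numbered followed the media, so that a processing batch and the medium cannot be told apart.

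Values are reads per 1000000 mapped reads (RPM) from the 3′ ends of transcripts, and differences are on the log2(RPM + 1) scale. Depth recovered from the value of 1 read was between 861000 and 7986000 reads per library, with a median of 3004000, so that 3 reads, taken as the floor of detection, corresponded to 0.38 to 3.49 RPM. Such limits cover counting error only. The 8415 genes analysed summed to 24.8 to 27.5% of the 1000000 reads to which each library was scaled, so that shares of genes and adjusted p-values refer to these genes and not to all transcripts. The summed level of 6 pluripotent cell markers was between 783 and 2581 RPM in the 21 PSC libraries and was at most 1.76 RPM in the somatic libraries. Most of the sum was LIN28A and SOX2, and it was still 1027 to 2138 RPM in differentiated cells. Differentiated minus naïve-like, LIN28A (-0.18) and SOX2 (0.09) changed little. POU5F1 (-4.14), HESX1 (-4.97), DPPA4 (-2.35) and L1TD1 (-2.22) were lower. In the library labelled liver, all 4 hepatocyte markers found (ALB, AFP, APOA2 and GC) were listed at 0. The mesenchymal markers COL1A2 and TWIST1 summed to 4833 RPM in liver and 4512 RPM in stomach, nearly all of it COL1A2. TWIST1 was at 0.587 RPM in liver, under the floor, and at 5.84 RPM in stomach, against up to 39.9 RPM in naïve-like cells. Fewer cells of a type and less RNA per cell cannot be told apart in these bulk libraries.

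CRIPTO had its highest and most even level in naïve-like cells. The level was 126 RPM in CMK6, 114 in TRSK, 105 in CMK9, 111 in L3, 102 in L6, 89.1 in S6 and 96.8 in S12, with a mean of 106 ± 12.2 RPM (SD, n = 7). All 7 values lay above the highest primed value. In primed cells CRIPTO was at 8.92 RPM in CMK6, 33.2 in TRSK, 61.9 in CMK9, 28.4 in L3, 83.7 in L6, 58.6 in S6 and 5.76 in S12. The lines therefore covered a wide range in primed medium, with CMK6 and S12 lowest and L6 highest, and no separation of ESC from iPSC lines. The mean difference, naïve-like minus primed, was 1.83 on the log2 scale (standard error 0.52), with the naïve-like library higher in 7 of 7 lines. Standard errors of differences between media, here and below, are limma's from the fit without the line as a block. They leave out the pairing of libraries by line and are not standard errors of the within-line differences. The within-line differences were largest in the lines with the lowest primed level, 3.86 in S12 and 3.68 in CMK6, and smallest in L6 with 0.28, and their SD was 1.45. Of the 2776 genes that passed the expression filter, 67 (2.41%) were higher in every naïve-like library than in any primed library.

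**Figure D1:**
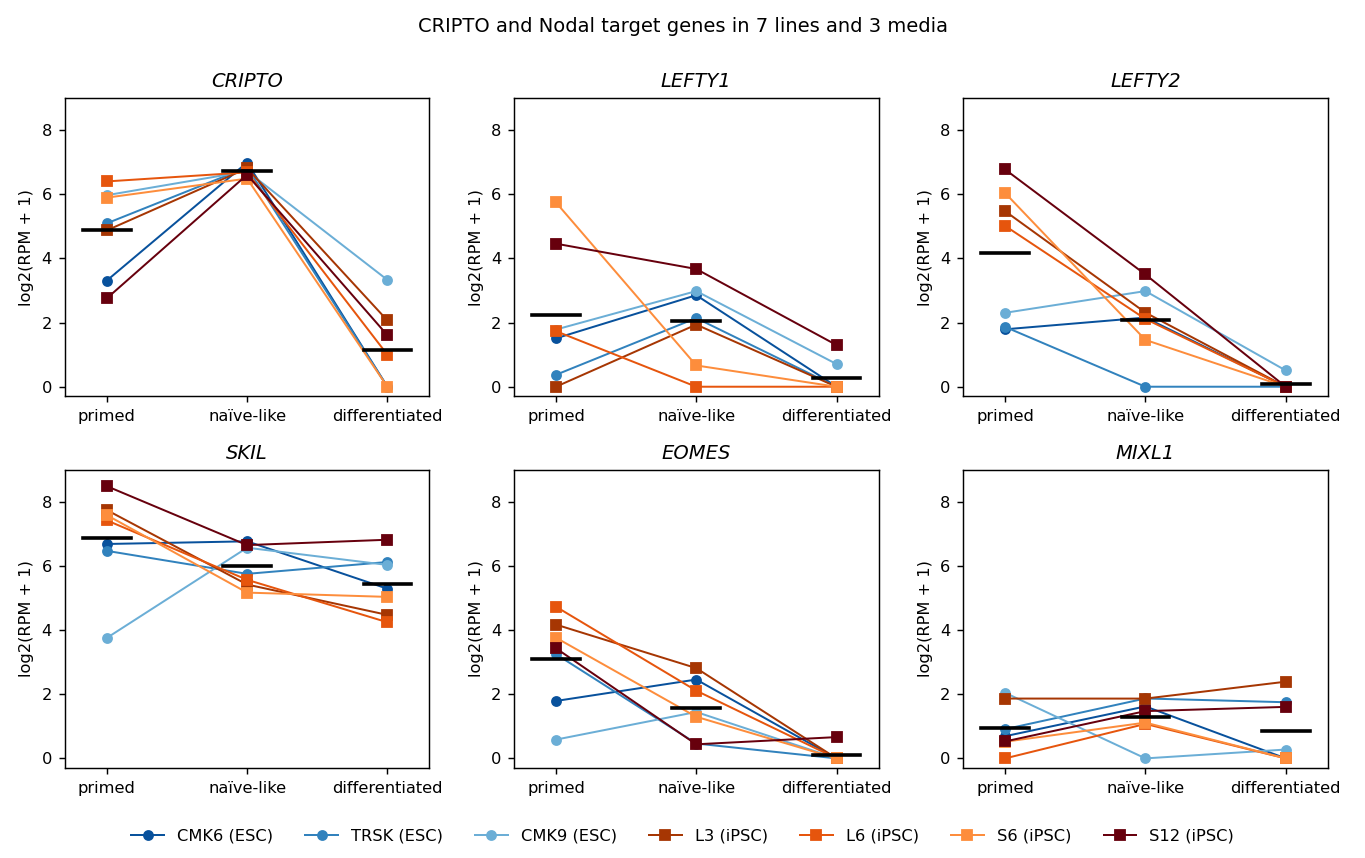
Level of each gene as log2(RPM + 1), y axis, in the 3 media, x axis, with 1 line per cell line (ESC lines as blue circles, iPSC lines as red to orange squares) and the mean of 7 lines as a black bar. CRIPTO converged on 89.1 to 126 RPM in naïve-like cells and was at most 9.07 RPM in differentiated cells, and LEFTY2, SKIL and EOMES were highest in primed iPSC lines.

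The spread of CRIPTO between lines differed by medium. The SD of log2(RPM + 1) over 7 lines was 1.39 in primed cells and 0.16 in naïve-like cells, where the median over all 2776 genes was 0.42 and 0.36. In primed cells, 97% of genes had a smaller SD than CRIPTO, and in naïve-like cells 9.22% did. Reads behind the values ran from 13 (S12) to 494 (CMK9) in primed cells and from 92 (L6) to 544 (S12) in naïve-like cells. Primed S12, the library with the lowest CRIPTO level, also had the lowest summed level of the 6 pluripotent cell markers, 783 RPM, and was the lowest primed library for 5 of the 6, SOX2 being the exception. The part of this in the CRIPTO value was not tested.

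After removal of LIF and Dox, CRIPTO was near or below the limit of detection in most lines. It was listed at 0 in CMK6, TRSK and S6, at 1.00 RPM in L6, 2.05 in S12, 3.19 in L3 and 9.07 in CMK9. All 7 values lay below the lowest naïve-like value, as was so for 81 of the 2776 genes tested (2.92%). The mean difference, differentiated minus naïve-like, was -5.59 (standard error 0.52), with every line lower. In the lines listed at 0, the naïve-like level was at least 129-fold the floor of 3 reads in CMK6, 208-fold in TRSK and 28.0-fold in S6, where the differentiated library was shallow. CMK9 kept the most CRIPTO after differentiation, with 43 reads. This library was the highest differentiated one for 3 of the 6 pluripotent cell markers, POU5F1, DPPA4 and HESX1, and not for SOX2, LIN28A and L1TD1. Against primed cells the differentiated level was lower in every one of 7 lines, the mean difference being -3.76 (standard error 0.52), although the groups overlapped because of primed S12 and CMK6. In somatic cells CRIPTO was listed at 0 in liver and stood at 1 read in stomach, under the floor.

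LEFTY2 was high in primed iPSC lines alone among all groups. Its primed level was 43.5 RPM in L3, 31.4 in L6, 64.9 in S6 and 109 in S12, against 2.46 in CMK6, 2.65 in TRSK and 3.94 in CMK9. The lowest iPSC value was thus well above the highest ESC value. In naïve-like cells LEFTY2 was at 3.46 RPM in CMK6, 0 in TRSK, 6.91 in CMK9, 3.97 in L3, 3.33 in L6, 1.75 in S6 and 10.3 in S12, and the classes overlapped. In differentiated cells only CMK9 had any reads, 2, under the floor. From primed to naïve-like medium LEFTY2 was lower in all 4 iPSC lines, by a mean of -3.48 ± 0.75 on the log2 scale (SD, n = 4), whereas CMK6 (0.37) and CMK9 (0.68) were slightly higher and TRSK (-1.87) was lower, its naïve-like library being at 0. From primed to differentiated medium every line was lower, with a mean difference of -4.11 (standard error 0.69) and no overlap between the groups, which 45 genes (1.62%) shared in that direction. LEFTY2 was among the genes that passed the expression filter only through its primed iPSC libraries. For the iPSC lines, all listed at 0 after differentiation, the primed level was at least 13.7-fold the floor in L3, 31.4-fold in L6, 20.4-fold in S6 and 124-fold in S12.

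LEFTY1 did not follow LEFTY2 in every line. In primed cells it was at 52.8 RPM in S6 and 21.04 in S12, the stomach-derived lines, but at 0 in L3 and 2.32 in L6, the liver-derived lines, and at 1.85 in CMK6, 0.294 in TRSK and 2.44 in CMK9. In naïve-like cells it was at 6.23 RPM in CMK6, 3.41 in TRSK, 6.91 in CMK9, 2.83 in L3, 0 in L6, 0.584 in S6 and 11.7 in S12. The direction of the difference, naïve-like minus primed, depended on the line: it was positive in all 3 ESC lines and in L3, and negative in S6 (-5.09) and S12 (-0.79). In L6 it was -1.73, but both values were under the floor, so no direction can be given. The primed values of TRSK and L3 were under the floor as well. The mean over all lines was -0.19 (standard error 0.74) and became 0.62 without S6. In differentiated cells LEFTY1 was seen only in CMK9, at 0.633 RPM, and in S12, at 1.46 RPM. LEFTY1 and LEFTY2 are close paralogs, and fractional read counts such as 121.5 and 149.5 in primed S6 show that reads were shared out between features, so the split between both genes is uncertain. The sum of both does not depend on that split. It was 4.31, 2.94 and 6.39 RPM in primed CMK6, TRSK and CMK9, and 43.5, 33.7, 118 and 130 RPM in primed L3, L6, S6 and S12, again without overlap.

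SKIL was well above the floor in every PSC library. Its primed level was 102 RPM in CMK6, 87.9 in TRSK, 12.5 in CMK9, 214 in L3, 171 in L6, 192 in S6 and 359 in S12. The 4 iPSC lines were above the 3 ESC lines, and CMK9 stood far below the others in this medium with 100 reads in the deepest library of the series. In naïve-like cells SKIL was at 108 RPM in CMK6, 53.1 in TRSK, 94.1 in CMK9, 41.9 in L3, 46.5 in L6, 35.04 in S6 and 99.7 in S12. In differentiated cells the values were 38.2, 68.8 and 64.5 RPM in the ESC lines in the same order and 21.3, 17.98, 31.8 and 112 RPM in the iPSC lines. Naïve-like minus primed, SKIL was lower in every iPSC line by a similar amount, with a mean of -2.11 ± 0.31 (SD, n = 4), while the ESC lines had 0.08 in CMK6, -0.72 in TRSK and 2.81 in CMK9. The mean over 7 lines was -0.89 (standard error 0.52), smaller than the SD of the within-line differences, 1.87. SKIL was not particular to pluripotent cells, with 24.1 RPM in somatic liver and 271 RPM in somatic stomach cells.

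EOMES was low throughout and highest in primed iPSC lines. Its primed level was 17.1 RPM in L3, 25.6 in L6, 12.6 in S6 and 9.82 in S12, against 2.46 in CMK6, 8.52 in TRSK and 0.501 in CMK9. TRSK came close to S12, and the classes did not overlap. In naïve-like cells it was between 0.356 RPM (S12) and 6.04 RPM (L3), with a median of 1.73 RPM, and in differentiated cells it was listed at 0 in all lines but S12, which had 2 reads. Naïve-like minus primed, EOMES was lower in all 4 iPSC lines (mean -2.36 ± 0.70, SD, n = 4) and in TRSK (-2.79), and slightly higher in CMK6 (0.67). The difference in CMK9 was 0.86, but its naïve-like value rested on 2 reads, under the floor, so no direction can be given. The naïve-like values of TRSK and S12 were under the floor as well. The mean difference from primed to differentiated cells was -3.01 (standard error 0.54), with 7 of 7 lines lower.

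MIXL1 was low in every group. It was between 0 and 3.13 RPM in primed cells, between 0 and 2.65 RPM in naïve-like cells and between 0 and 4.25 RPM in differentiated cells, with at most 25 reads in a library (primed CMK9, 3.13 RPM against a floor of 0.38 RPM), and it passed the expression filter (log2(RPM + 1) above 4, or 15 RPM, in at least 1 PSC library) in none. Of the other 5 genes, SKIL was above the filter in 20 libraries and CRIPTO in 12, whereas LEFTY2 passed through the 4 primed iPSC libraries, EOMES through 2 of them and LEFTY1 through 2 of them. Since these 3 genes entered the tested set only through the group in which they were high, the number of genes called among the 6 is given without weight, and the fit with no filter, over 5981 genes, is given beside theirs.

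The comparison of ESC with iPSC lines within a medium asked whether both classes carried the same levels under the same culture conditions. Since the genes were chosen with earlier results of these data known, its p-values cannot stand as independent support. In primed medium LEFTY2 was lower in ESC lines by 3.84 on the log2 scale, with 1.99 ± 0.28 in 3 ESC lines and 5.83 ± 0.76 in 4 iPSC lines (SD of log2(RPM + 1)). The standard error was 0.61, the 95% interval was -5.10 to -2.58, and the adjusted p was 0.00185 by limma over all 2776 genes. LEFTY2 was in that set only through its primed iPSC libraries; in the fit with no filter the standard error was 0.60 and the adjusted p was 0.00308 by limma over 5981 genes. LEFTY2 was the 1 gene of the 6 to be called in this comparison, in which 44 genes (1.59%) were called in either direction and 24 genes (0.865%) lower in ESC lines. The call was kept when each line was left out in turn, with limma adjusted p between 0.00434 and 0.0152. Those runs kept the 2776 genes filtered on all 21 libraries, so they share that selection, and none was made with no filter. The call was lost with a pseudocount of 0.1 in place of 1, where the limma adjusted p was 0.0555. For the sum of LEFTY1 and LEFTY2 the difference was -3.71.

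SKIL and EOMES had the same direction in primed medium and did not pass the threshold. SKIL was lower in ESC lines by 2.17 (standard error 0.59, limma adjusted p = 0.0633) and EOMES by 2.15 (standard error 0.67, limma adjusted p = 0.108). These standard errors share 1 estimate of spread over the 6 groups of medium and cell class. The SDs in primed ESC and iPSC lines were 1.63 and 0.47 for SKIL, and 1.33 and 0.56 for EOMES. In differentiated cells, mostly at 0, the EOMES SDs were 0 and 0.33. Intervals from the primed lines alone were not computed. With no filter the adjusted p was 0.14 for SKIL and 0.131 for EOMES by limma. Like LEFTY2, both had every ESC line below every iPSC line, which was so for 193 of 2776 genes (6.95%). LEFTY2 and EOMES were in that set only through primed iPSC libraries, and no such share was computed without the filter. With no overlap between classes, the two-sided exact permutation test over the 7 lines gave p = 0.0286 for each of the 3 genes. That is the smallest value that 3 against 4 lines can give. The SKIL difference rested in part on CMK9: it was -1.23 without that line (limma adjusted p = 0.352) and -2.70 without CMK6 (limma adjusted p = 0.0457). Without CMK9 the EOMES difference was -1.51 (limma adjusted p = 0.393). LEFTY1 differed by -1.76 with a standard error of 1.02 (limma adjusted p = 0.423, or 0.536 with no filter). CRIPTO differed by -0.19 with a 95% interval of -1.83 to 1.45 (limma adjusted p = 0.943), which leaves room for more than a 2-fold difference in either direction. MIXL1, outside the tested set, had 1.22 ± 0.73 in ESC and 0.73 ± 0.80 in iPSC lines, a difference of 0.49 (95% interval -0.85 to 1.83, limma adjusted p = 0.866 with no filter).

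**Figure D2:**
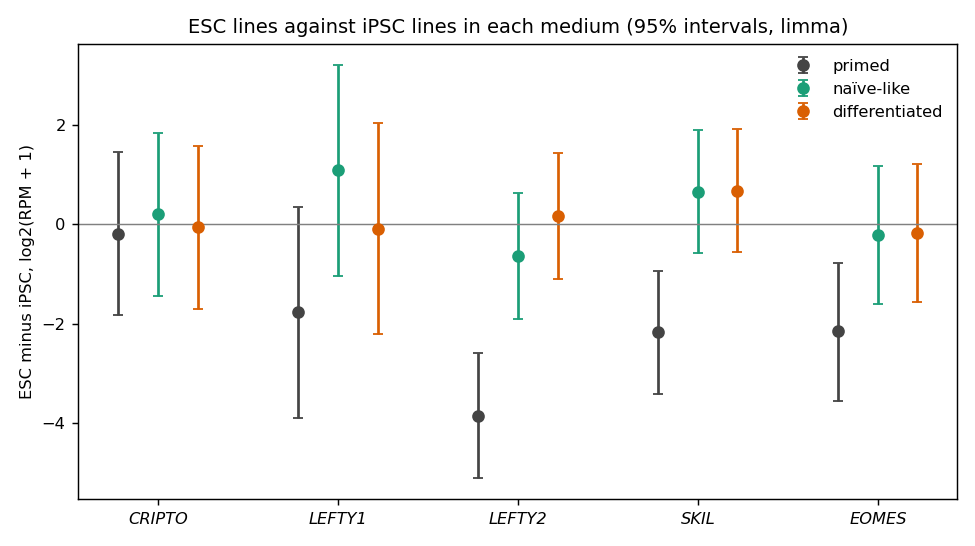
Difference between 3 ESC and 4 iPSC lines in log2(RPM + 1), y axis, for the 5 genes that passed the expression filter, x axis, with points for each medium and bars for limma's 95% interval. In primed cells the intervals of LEFTY2 (-5.10 to -2.58), SKIL (-3.41 to -0.94) and EOMES (-3.54 to -0.77) lie below 0, unadjusted for the number of genes, and in both other media all intervals include 0. Each interval rests on 1 spread shared by the 6 groups of medium and cell class, not on the spread of its own medium.

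In the naïve-like and differentiated media none of the 5 genes was called between classes, where 20 genes (0.72%) and 17 genes (0.612%) of all tested were. LEFTY2 differed by -0.63 in naïve-like cells (95% interval -1.90 to 0.63, limma adjusted p = 0.785, or 0.81 with no filter). SKIL differed by 0.66 (95% interval -0.57 to 1.90, limma adjusted p = 0.774), with the ESC lines on the higher side. The change of the class difference from primed to naïve-like medium was tested as an interaction. It was 3.21 for LEFTY2 (standard error 0.86, unadjusted p = 0.0012 by limma, adjusted p = 0.91) and 2.83 for SKIL (standard error 0.84, unadjusted p = 0.00286 by limma, adjusted p = 0.91). By limma, 0 of 2776 genes (0%) passed the adjusted threshold for this interaction and 133 had an unadjusted p under 0.05, so that for none of the 5 genes was the change of the class difference past the threshold. With no filter the adjusted p was 0.384 for LEFTY2 and 0.735 for SKIL by limma, and 8 of 5981 genes passed, none of them among the 6. The interaction between the differentiated and naïve-like media likewise had 0 calls (0%), with 109 genes at an unadjusted p under 0.05.

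Markers of other cells were set beside the class difference in primed medium. The sum of COL1A2 and TWIST1, the 2 mesenchymal markers found of 10, was between 87.0 and 584 RPM in ESC lines and between 24.4 and 167 RPM in iPSC lines, and the difference in COL1A2 was 2.44 (standard error 0.82, limma adjusted p = 0.13). The sum was mostly COL1A2. TWIST1 overlapped between the classes, and its difference was 0.51 (standard error 0.91, limma adjusted p = 0.845). The 6 pluripotent cell markers summed to between 1369 and 2411 RPM in ESC lines and between 783 and 1862 RPM in iPSC lines. For 2 of the 6, POU5F1 and DPPA4, every ESC line was above every iPSC line, and the other 4 overlapped; the differences ran from -0.01 (SOX2) to 1.28 (POU5F1, limma adjusted p = 0.401), and none was called. The part of these markers in the LEFTY2, SKIL and EOMES differences was not tested. Both somatic libraries had LEFTY2, LEFTY1 and EOMES at 0.

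CRIPTO and the target genes did not follow each other across primed lines. S12 had the lowest CRIPTO level and the highest LEFTY2 and SKIL levels in primed medium, and CMK9 had the second highest CRIPTO level and the lowest SKIL and EOMES levels. Over the 7 primed libraries Pearson's r of CRIPTO was -0.09 with LEFTY1, -0.07 with LEFTY2, -0.40 with SKIL and 0.15 with EOMES. Among the targets r was 0.73 between LEFTY2 and SKIL, 0.67 between LEFTY2 and EOMES and 0.82 between SKIL and EOMES, and for LEFTY1 it was 0.59 with LEFTY2, 0.32 with SKIL and 0.09 with EOMES. These values are descriptions over 7 libraries that fall into 2 cell classes, and the targets' values share the class difference. From primed to naïve-like medium CRIPTO was higher in each of the 4 iPSC lines while LEFTY2, SKIL and EOMES were lower in each of them.

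**Figure D3:**
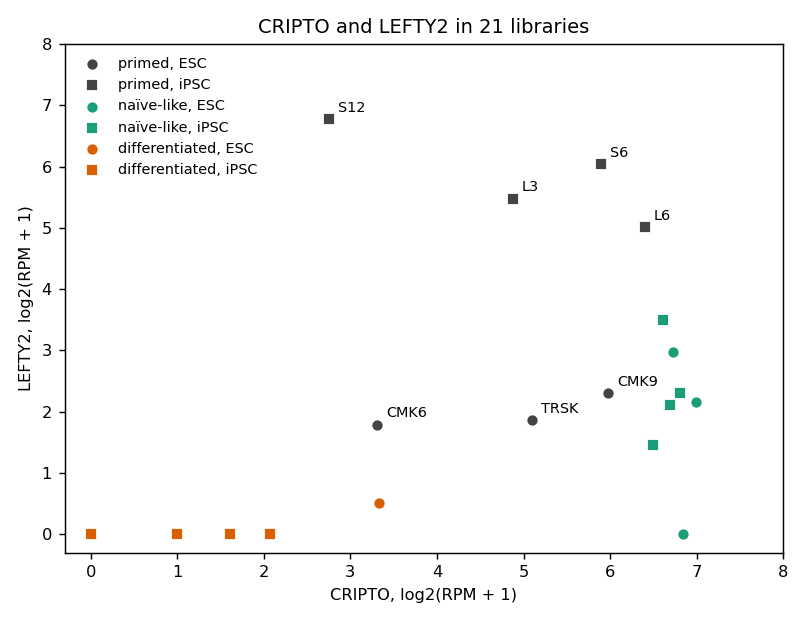
LEFTY2 against CRIPTO, both as log2(RPM + 1), in 21 libraries coloured by medium, with ESC lines as circles and iPSC lines as squares and the primed libraries named by line. Primed iPSC libraries lie at a LEFTY2 level of 31.4 to 109 RPM over a CRIPTO range of 5.76 to 83.7 RPM, and naïve-like libraries lie at a CRIPTO level of 89.1 to 126 RPM with LEFTY2 at 0 to 10.3 RPM.

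Of 71 other genes listed for the Nodal pathway, 11 were found in the table and 7 passed the expression filter; the ligand NODAL and the SMAD2, SMAD3 and SMAD4 transducers were not analysed here. The other listed genes were likewise not analysed here, and the counts that follow cover the genes found only. The listed ligand subunit INHBA was at most 6.64 RPM in PSC libraries and reached 571 RPM in somatic stomach cells. Between naïve-like and primed cells 1 of the 7 was called by limma (lower) and none higher, where 534 of 2776 genes (19.2%) were called, 307 higher and 227 lower. Between differentiated and naïve-like cells 1 was called higher and 2 lower, against 392 genes (14.1%), 178 higher and 214 lower. Between differentiated and primed cells 3 were called lower, against 372 genes (13.4%), 174 higher and 198 lower. With the line as a block, 585 genes were called in that last comparison. Both lower calls between differentiated and naïve-like cells, TGFBR3 and KDR, were lost with no filter. The medians over the 7 genes were -0.27, -0.56 and -0.82 in these comparisons, where those over all genes were 0.06, -0.02 and 0.05. Between ESC and iPSC lines none of the 7 was called in any medium.

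The receptor genes with a call had their lowest mean level in differentiated cells. The type II activin receptor gene ACVR2B, which also serves Nodal, was at 40.4 to 72.9 RPM in primed and 18.05 to 47.3 RPM in differentiated cells, a difference of -0.82 (standard error 0.21, limma adjusted p = 0.00946). TGFBR2, the type II receptor for TGF-β itself, fell by 1.97 between the same media (standard error 0.47, limma adjusted p = 0.00618). TGFBR3, or betaglycan, a coreceptor for TGF-β and inhibin, was at 12.3 to 34.9 RPM in naïve-like and 4.25 to 12.2 RPM in differentiated cells, with a difference of -1.26 (standard error 0.37, limma adjusted p = 0.0227). No differentiated library had TGFBR3 above the filter of 15 RPM, and primed S12, at 3.10 RPM, lay below every differentiated value. With no filter the adjusted p of TGFBR3 was 0.0522 by limma, so that this call was lost. The calls of ACVR2B and TGFBR2 were kept with no filter (limma adjusted p = 0.0206 and 0.0191).

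KDR is a VEGF receptor that marks early mesoderm and passed the expression filter only through primed libraries. It ranged from 4.41 to 47.7 RPM in primed cells, from 1.11 to 10.4 RPM after naïve-like conversion and from 0 to 4.64 RPM after LIF and Dox removal. Naïve-like minus primed it was -1.82 (standard error 0.52, limma adjusted p = 0.0186), and differentiated minus naïve-like it was -1.66 (standard error 0.52, limma adjusted p = 0.0356). With no filter these adjusted p-values were 0.0436 and 0.0775 by limma, so that the call of the second difference was lost. FSTL1, a secreted glycoprotein related to follistatin, rose by 0.87 from naïve-like to differentiated cells (standard error 0.17, limma adjusted p = 0.00118). Naïve-like minus primed it differed by -0.47 (limma adjusted p = 0.0559), which passed the threshold with the line as a block (limma adjusted p = 0.0377). SMURF1, a ubiquitin ligase that targets SMADs and receptors, and TRIM33, which binds SMAD2 and SMAD3, were called in no comparison. TBXT, the primitive streak factor brachyury, was at most 2.92 RPM, PDGFRA at most 6.201 RPM and ZFYVE9, the SMAD anchor, at most 3.19 RPM in PSC libraries.

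**Figure D4:**
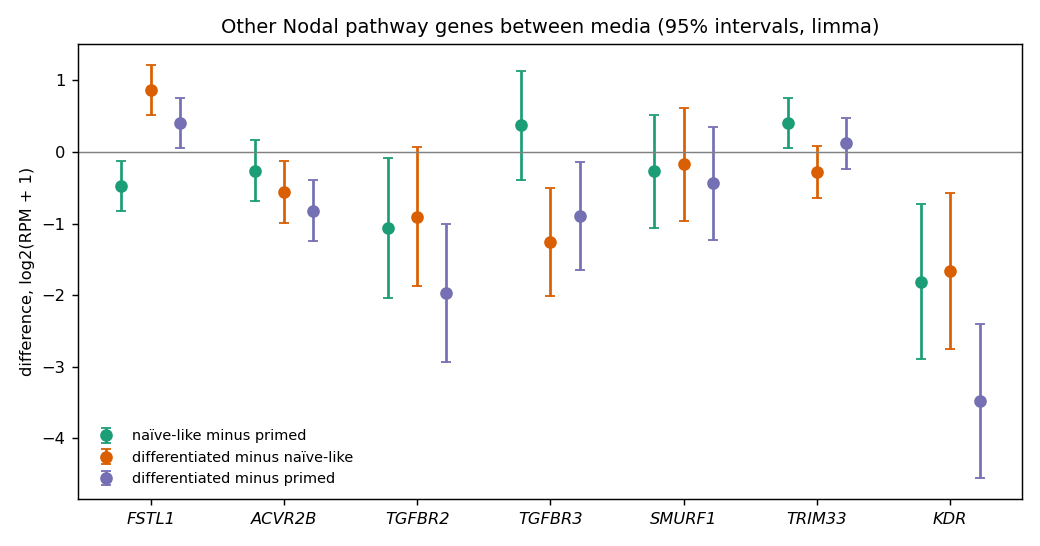
Differences between media in log2(RPM + 1), y axis, for the 7 other pathway genes that passed the expression filter, x axis, with bars for limma's 95% interval over 21 libraries. KDR has the largest differences (-1.82, -1.66 and -3.48) and FSTL1 the 1 called increase (0.87, differentiated minus naïve-like).

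Genes with profiles most like those of the members were found by Pearson's r over the 21 PSC libraries, which share the 3 media, so that a common difference between media is enough for a high r. HESX1, a homeobox gene of early embryos, was nearest to CRIPTO with r = 0.949, followed by AK4 (0.919), THEM4 (0.9), POU5F1 (0.899) and RBM47 (0.898). The means of HESX1 in log2(RPM + 1) ran 3.45 (primed), 5.76 (naïve-like) and 0.79 (differentiated), where CRIPTO had 4.90, 6.74 and 1.14. POU5F1 had 7.68, 8.18 and 4.04. The nearest gene to LEFTY2 was EOMES (r = 0.829), then KALRN (0.803) and ZYX (0.802). For EOMES, LEFTY2 was followed by IL17RD (0.824) and ETV5 (0.812), both known to respond to FGF signals. BHLHE40 (0.87), CPEB2 (0.846) and ERRFI1 (0.829) were nearest to SKIL, and SNX9 (0.734), LAMC1 (0.723) and EZR (0.716) to LEFTY1.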

How the data were processed

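Total RNA (1 ng per library) was converted to cDNA and sequenced at its 3′ ends by SC3-seq, with spike-in RNA as a quality check. The authors trimmed, aligned and quantified reads with cutadapt 1.3, TopHat 1.4.1 and Cufflinks 2.2.0, as named in the submitters' processing notes, in a mode without strand, and deposited RPM values (reads per 1000000 mapped reads), with 1 column per library and no pooling. Reads from overlapping genes on opposite strands cannot be told apart. Since 86.7 to 92.9% of the values above 0 were whole multiples of 1 read (tolerance 0.02) and the rest were fractions, no count test was run. All 23 columns were mapped by name, and 1 incomplete row was left out. The 8415 genes analysed summed to 24.8 to 27.5% of the RPM total, and other genes were not analysed here. Of the 8415, 5564 matched a RefSeq annotation of the species by gene ID, from which 991 provisional names were replaced.

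The 2776 genes with log2(RPM + 1) above 4 in at least 1 of 21 PSC libraries, the filter of the study, were fitted with limma 3.58.1 in R 4.3.3 (trended moderated test, two-sided, Benjamini-Hochberg over all genes, threshold 0.05). One fit had 3 media and another had 6 groups of medium and cell class, whose contrasts gave ESC minus iPSC and its change between media. The fits were tested on simulated data. Single differences were also tested by an exact permutation test over 35 divisions of the lines. Its smallest p is 0.0286. Libraries of a line share their cells: after removal of the media means, the correlation of deviations was 0.269 on average over 21 same-line pairs (lowest 0.03) and -0.0446 over 126 other pairs. The line was a block in an alternative. Other alternatives were a pseudocount of 0.1, no filter, the filter in 7 libraries, quantile normalization, no trend and each line left out.

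The members, the pathway lists and the markers were chosen with earlier results of these data known. Named are all members, each pathway gene called between media, the 3 genes of each pathway list with the highest mean, the 5 genes most like CRIPTO and the 3 most like each other member.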

Additional observations from a re-analysis of the deposited data

Results flagged for a closer look

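Each gene was examined for a library far from its group, by the gap to the nearest library divided by the range, in 36 groups (the 7 lines or the 4 iPSC lines in a medium), of which chance alone flags about 1 in 20. In primed cells SKIL was lowest in CMK9, 12.5 RPM against 87.9 to 359 RPM in the other 6 lines (gap over range 0.574, critical value 0.568). In naïve-like cells MIXL1 was lowest in CMK9, at 0 against 1.11 to 2.65 RPM (gap over range 0.576), a difference of few reads. In differentiated cells 4 further groups had a gap over range of 1 because all other libraries were at 0: LEFTY2 in CMK9 (0.422 RPM, 2 reads), EOMES in S12 (0.585 RPM, 2 reads) among both 7 and 4 lines, and LEFTY1 in S12 (1.46 RPM, 5 reads) among the 4 iPSC lines.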

How the results depend on the processing

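Low levels set the main limit: LEFTY1, LEFTY2, EOMES and MIXL1 had few or no reads in many libraries, so their log2 differences depend on the pseudocount. With a pseudocount of 0.1, differentiated minus naïve-like became -7.27 for CRIPTO, -3.56 for LEFTY1, -4.32 for LEFTY2, -3.77 for EOMES and -1.34 for MIXL1, and differentiated minus primed became -6.99 for LEFTY2 and -5.71 for EOMES. Of 51 media differences under other settings 44, and of 126 with 1 line left out 126, moved by less than 1 SD of the within-line differences.

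For ESC minus iPSC, LEFTY2 in primed cells was -4.19 with that pseudocount (limma adjusted p = 0.0555) and was called under every other setting that gave a value, with -4.11 to -3.52 when 1 line was left out. SKIL in primed cells ran from -2.70 (called, without CMK6) to -1.23 (without CMK9). Small differences changed sign without ever being called: CRIPTO ran from -0.93 to 0.55 in primed and -1.17 to 0.50 in differentiated cells, LEFTY1 from -0.32 to 0.24 in differentiated cells, LEFTY2 from -1.27 to 0.22 (without TRSK) and EOMES from -0.71 to 0.29 in naïve-like cells, and LEFTY2 in differentiated cells was -0.07 with quantile normalization. The sum of LEFTY1 and LEFTY2, an alternative chosen after seeing the data, gave 0.31 in naïve-like cells. The filter in 7 libraries gave no value for LEFTY1, LEFTY2, EOMES and MIXL1.

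With 1 line left out the genes called ran from 302 (without L3) to 527 for naïve-like minus primed, 219 (without CMK6) to 342 for differentiated minus naïve-like, 241 (without S6) to 392 for differentiated minus primed, and, for ESC minus iPSC, 15 (without L6) to 46 in primed, 7 (without L3) to 31 (without S12) in naïve-like and 4 (without TRSK or L3) to 112 (without S12) in differentiated cells. The line as a block, fitted as the pairing of libraries, gave 585 genes for differentiated minus primed and changed no other count by over 1.5 times; of the pathway genes named, it added the call of FSTL1 between naïve-like and primed cells. Without the filter 38 genes were called between classes in naïve-like cells, and 8 and 5 for the changes of the class difference. The causes were not tested.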
